A study of Mus musculus with 2 samples.

Results

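The complement factors C2, C3, C4b, Cfb, Cfd and Cfp and the anaphylatoxin receptors C3ar1 and C5ar1 were followed in white adipose tissue, the energy-storing fat of the mouse. The 8 genes were chosen by name, without C1q, but with earlier results of these arrays known. Probe sets annotated with a single one of these symbols were found for 6 of the 8, among 19938 genes measured in all. C3 and Cfd had no such probe set in the annotation used and were not analysed here. Each of the 6 had 1 probe set.

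The fat came from mice that were 24 weeks old and had been on a high-fat diet for 20 weeks, a model of diet-induced obesity. The Oma1_WT group was 1 array of control fat, and the Oma1_KO group was 1 array of Oma1-deficient fat. Both groups shared the diet, the age and the tissue. Oma1 is a membrane-bound protease of mitochondria, and the comparison asks which transcripts differed in obese fat in its absence. The labels used here give no strain, sex, fat depot or type of Oma1 allele, and do not say whether RNA of several mice was pooled. With 1 array per group there is no replicate, so no difference below has a test or an error between animals.

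Complement is a cascade of plasma proteins that marks particles for uptake, recruits white cells and can form pores in membranes. The classical and lectin pathways cleave C4 and C2, the alternative pathway is built from C3, factor B, factor D and properdin, and both routes make convertases that cleave C3 and then C5. The small fragments released, C3a and C5a, act on G protein-coupled receptors that myeloid cells carry. Fat is a source of several of these factors, among them factor D, which was first described in adipocytes as adipsin. The liver makes most of the complement protein found in plasma, while C1q and properdin come largely from myeloid cells.

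C5ar1 was the member that differed most, 1.64-fold higher in the Oma1_KO array. Its relative C5ar2, encoded next to it on chromosome 7, was 1.73-fold higher. C3ar1 and Cfp were higher by smaller amounts, and the factors C2, Cfb and C4b were within 1.05-fold of equal. Among the other complement genes, all 7 measured genes of the C1 group were higher, 5 of 7 membrane regulators were lower, and the terminal component C6 was 2.07-fold lower. Of all 19938 genes 46.9% were higher and 47.9% lower, and of those above an intensity filter 36.6% and 62.3%. Every fold is on the log2(intensity + 1) scale, and a difference is always the log2 value in Oma1_KO minus that in Oma1_WT.

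The promoters of the 3 anaphylatoxin receptors are shown. C5ar1 and C5ar2 are neighbours that were both higher in Oma1_KO, while C3ar1, which responds to the other fragment, differed less. A link between these promoters and the differences was not tested. Each promoter shown is the 250 bases before the transcription start in RefSeq, build GRCm38.p6, printed along the gene's own strand. Of the 8 listed genes 5 had an entry in the promoter table, and C2, C4b and Cfb had none. C5ar1 is shown at chr7:16259339-16259588, C5ar2 at chr7:16244155-16244404 and C3ar1 at chr6:122856158-122856407, all on the minus strand. C5ar2 had 2 starts in the table, and the outermost is shown. Capitals mark matches to the motifs described after the sequences.
C5ar1: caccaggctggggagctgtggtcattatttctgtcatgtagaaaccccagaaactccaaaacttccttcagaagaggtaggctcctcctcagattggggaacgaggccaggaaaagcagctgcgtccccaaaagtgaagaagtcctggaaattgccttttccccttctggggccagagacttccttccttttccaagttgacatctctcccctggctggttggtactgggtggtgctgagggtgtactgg
C5ar2: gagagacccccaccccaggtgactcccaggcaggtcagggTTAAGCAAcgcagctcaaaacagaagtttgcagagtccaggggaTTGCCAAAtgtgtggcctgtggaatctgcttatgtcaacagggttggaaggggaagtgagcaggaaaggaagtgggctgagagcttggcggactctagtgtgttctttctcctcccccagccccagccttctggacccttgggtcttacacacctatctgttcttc
C3ar1: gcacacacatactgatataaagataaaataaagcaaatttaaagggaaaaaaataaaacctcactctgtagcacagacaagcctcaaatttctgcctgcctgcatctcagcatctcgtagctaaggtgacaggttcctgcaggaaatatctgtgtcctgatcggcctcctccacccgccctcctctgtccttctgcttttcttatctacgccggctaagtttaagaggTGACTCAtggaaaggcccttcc

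Both strands were searched for GAGGAA, the core bound by PU.1-type ETS factors of myeloid cells, TGANTCA for AP-1, TTCNNNGAA for the interferon-gamma-activated site and TTGCNNAA for C/EBP factors. The C5ar1 window held no match to any of them. The C5ar2 window held 2 matches to the C/EBP letters, from 210 to 203 and from 166 to 159 bases before the start, a motif present in 9.57% of 32841 promoter windows of this length. The C3ar1 window held 1 match to the AP-1 letters, from 22 to 16 bases before the start, a motif present in 6.75% of windows. GAGGAA and the interferon-gamma-activated site were in 23.3% and 7.02% of windows. No matches overlapped. These are matches of letters in a window and not evidence of binding.

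The receptors gave the clearest contrast among the members. C5ar1, the main receptor for C5a and a chemoattractant receptor of neutrophils and macrophages, read an intensity of 636 in Oma1_WT and 1041 in Oma1_KO, a log2 difference of 0.71. The Oma1_KO array was the higher. Of the 11399 genes above an intensity filter, 87 had a higher difference, and 0.772% had one at least as high. Among the 1140 genes in the same intensity decile that share was 0.439%. The filter kept genes with a mean intensity of at least 83, the middle value over all probe sets, and all 6 members were above it on both arrays. For 545 genes with 2 probe sets, the log2 difference of Oma1_KO minus Oma1_WT had an SD of 0.17 among probe sets of the same gene. The C5ar1 difference was 4.2 times that SD, which covers disagreement of probe sets on the same RNAs and says nothing of differences between animals.

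C3ar1, the receptor for C3a, read 4627 in Oma1_WT and 5295 in Oma1_KO, a difference of 0.19 or 1.14-fold. It was higher in Oma1_KO, by 1.1 times the SD between probe sets. In all, 11.4% of genes above the filter had a difference at least as high, so that C3ar1 lay in the upper part of the bulk of genes while C5ar1 lay in its tail. Whether the gap between the 2 receptors would be seen in other animals was not measured.

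C5ar2, a second C5a receptor that does not couple to G proteins, was no listed member but belongs beside them. It read 141 in Oma1_WT and 245 in Oma1_KO, a difference of 0.79. Among protein-coding genes in the RefSeq gene table it lies directly next to C5ar1. The coding genes on the outer sides of this pair were level, with Dhx34 at 185 and 187 (0.02) and Ccdc9 at 115 and 121 (0.07). The source of the ligand C5a is Hc, the mouse gene for C5, which read 90 and 116 (0.36) and was barely above the filter intensity.

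Of the factors, properdin differed most. Cfp encodes properdin, the plasma protein that stabilises the C3 convertase of the alternative pathway and is made by myeloid cells. It read 1059 in Oma1_WT and 1273 in Oma1_KO, a difference of 0.27 or 1.2-fold. The difference was 1.6 times the SD between probe sets, and 7.07% of genes above the filter had one at least as high. Cfp lies on the X chromosome.

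The convertase components that were measured were level, while C3 had no value. Cfb encodes factor B, the protease subunit of the alternative C3 convertase, and read 2614 in Oma1_WT and 2564 in Oma1_KO, a difference of -0.03. C2 encodes the matching protease subunit of the classical and lectin convertase and read 472 and 451, a difference of -0.07. C4b encodes C4, whose larger fragment anchors that convertase, and read 5274 and 5557, a difference of 0.08. Each of these was at most 0.4 times the SD between probe sets. The sign was not stable for C2, which ran from -0.07 to 0.01 over the scaling choices tried, nor for Cfb, which ran from -0.03 to 0.01.

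**Figure D1:**
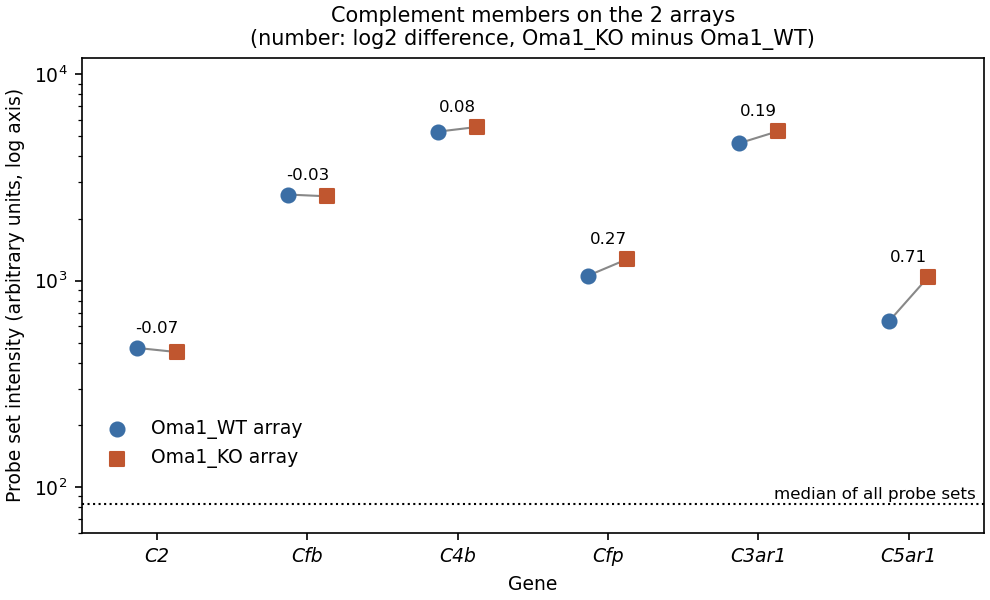
Probe set intensity (log axis, arbitrary units) of the 6 measured complement members on the Oma1_WT array (circles) and the Oma1_KO array (squares), 1 array each, with the log2 difference above each pair and the median of all probe sets as a dotted line. C5ar1 has the steepest line, from 636 to 1041, while the lines of C2, Cfb and C4b are close to flat. Intensities of different genes come from different probes and are not comparable with each other.

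C2, Cfb and C4b lie close together on chromosome 17, in the class III part of the major histocompatibility complex. Of the measured genes between C4b and C2 in the gene table, besides Cfb, Stk19 read 260 and 286 (0.14), Skiv2l 556 and 508 (-0.13), Dxo 243 and 233 (-0.06) and Nelfe 179 and 183 (0.03). Cyp21a1, at 50 and 49, was under the filter. C4a, which encodes the sex-limited protein and is classed as a transcribed pseudogene in the gene table, read 430 and 367 (-0.23). C4a and C4b are near-identical copies, and either probe set could pick up both, which makes the value of each uncertain. No measured gene of the stretch reached 1.5-fold.

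Fixed sizes were used to count the members. At least 1.5-fold higher was 1 of 6, C5ar1, beside 1.25% of all genes above the filter (143 of 11399). At least 1.5-fold lower was 0 of 6, beside 1.75% (199 genes). At least 1.2-fold higher were 2 of 6, C5ar1 and Cfp, beside 7.17% of genes, and at least 1.2-fold lower 0 of 6, beside 14.6%. At the 2-fold size there were 0 members in either direction, beside 0.272% of genes higher and 0.246% lower. By sign alone 4 of 6 were higher, beside 36.6% of genes, and 2 of 6 lower, beside 62.3%. The median difference of the 6 was 0.13, and that of all genes above the filter -0.06. These genes are too few, and were chosen with results of these arrays known, for the counts to say more than the single values do. The scaling decided which direction was the larger: the split of 143 higher and 199 lower became 169 and 147 after quantile normalisation and 165 and 154 after loess.

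**Figure D2:**
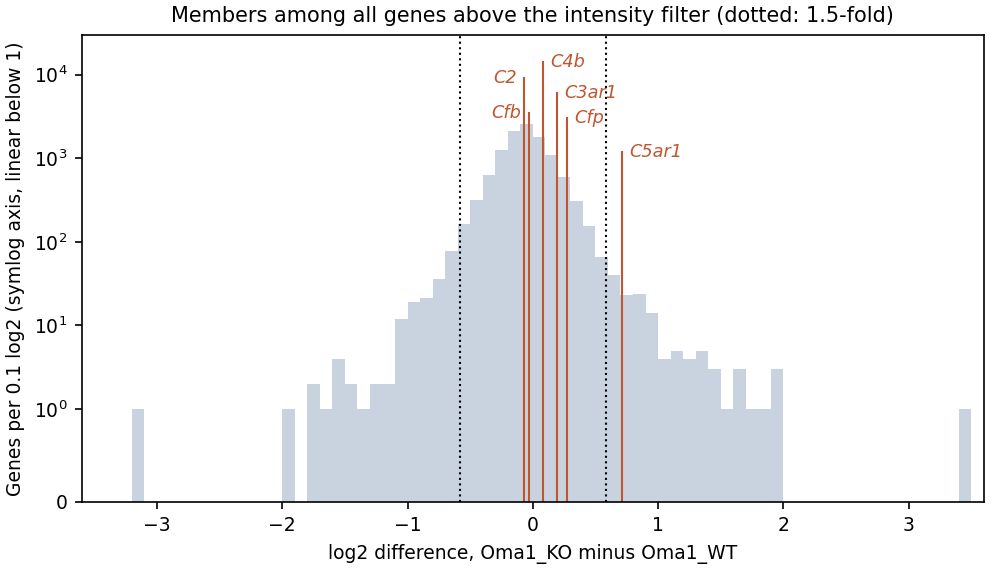
Number of genes (symlog axis) in steps of 0.1 of the log2 difference between the Oma1_KO and Oma1_WT arrays, over the 11399 genes above the intensity filter, with the 6 members as vertical lines and 1.5-fold as dotted lines. The height of the lines has no meaning. C2, Cfb and C4b stand in the centre, C3ar1 and Cfp on its right shoulder, and C5ar1, at 0.71, alone beyond the 1.5-fold line.

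The rest of the pathway was taken from lists by role, 51 other complement genes of which 46 were measured and 29 were above the filter. Of the 46, 3 were at least 1.5-fold higher (C5ar2, C8g and Vtn, beside 1.15% of all 19938 genes) and 2 at least 1.5-fold lower (C6 and Cd59a, beside 1.40%). In all 29 were higher and 16 lower, 1 was equal, and the median was 0.14, which became -0.02 over the genes above the upper quartile of intensity. Over all 19938 genes 46.9% were higher and 47.9% lower, with a median of 0.00.

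The C1 group, which starts the classical pathway on bound antibody, was higher in sign throughout, though not all of its genes differed by much. All 7 measured genes were above the filter and higher, 3 of them by at least 1.2-fold and 0 by 1.5-fold, with a median of 0.25. Of all genes above the filter 36.6% were higher, and 7.17% were at least 1.2-fold higher. The chains of C1q read 2167 and 2845 for C1qa (0.39), 6733 and 8153 for C1qb (0.28), and 3919 and 4633 for C1qc (0.24). The proteases read 175 and 222 for C1ra (0.34) and 1502 and 1784 for C1s1 (0.25). C1s2, at 89 and 96 (0.11), and the protease-like C1rl, at 192 and 204 (0.09), were the lowest of the group. They differed by only 0.6 and 0.5 times the SD between probe sets, about as little as C4b. These signs held under every scaling choice tried.

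The lectin pathway, in which sugar-binding proteins replace C1q, was mostly dim. Of 9 measured genes 6 were under the filter, 6 were higher and 3 lower, and 0 reached 1.5-fold. Of the 3 above the filter, Fcna, a ficolin made by macrophages, read 338 and 244 (-0.47), Colec12, a scavenger receptor with a collectin domain, 986 and 898 (-0.13), and Colec11, a soluble collectin, 95 and 107 (0.17). Fcna was therefore lower while the C1q chains were higher.

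Terminal components, which assemble the membrane pore, held the widest range. C6, the protein that binds C5b to begin the pore, read 1718 in Oma1_WT and 828 in Oma1_KO, a difference of -1.05 and the only one of the 46 past 2-fold, beside 0.201% of all genes at least 2-fold lower. C7, the protein that joins after C6, read 2044 and 2186 (0.10). C8g, a chain of C8, read 78 and 154 (0.97), and passed the filter only through the Oma1_KO array, so the size of its difference is uncertain. C8a, C8b and C9 were under the filter. The 7 genes had a median of 0.36, 6 higher and 1 lower, C6, and the 4 above the filter a median of 0.23. Of the 6 higher genes, 3 were under the filter and Hc was barely above it. With C8g passing on 1 array only, the direction of the list is uncertain.

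Of the soluble regulators 6 of 8 were higher, 4 of them under the filter, with a median of 0.30. Vtn, which encodes vitronectin, a plasma protein that blocks insertion of the pore, read 467 and 701 (0.58), at the 1.5-fold line itself. Cfi, the protease that inactivates C3b and C4b, read 90 and 130 (0.53). Clu, which encodes clusterin, read 897 and 815 (-0.14).

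Membrane regulators protect the body's own cells from complement and had the lowest median of the roles. Of 7 measured genes 5 were lower, 1 was higher and 1 equal, the median was -0.47, and 3 were under the filter. Of all genes 47.9% were lower, and of those above the filter 62.3%, so the count of 5 says little by itself. Cd59a, which blocks the terminal pore on cell surfaces, read 5576 in Oma1_WT and 3514 in Oma1_KO, a difference of -0.67 or 1.59-fold lower. Its copy Cd59b read 300 and 216 (-0.47), and since both genes are close relatives their probe sets may share signal. Cd55, which speeds the decay of convertases, read 408 and 292 (-0.48). Cr1l, the mouse regulator known as Crry, read 316 and 261 (-0.27). Each of these 4 kept its sign under every scaling choice tried.

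Among the other receptors, C5ar2 and Vsig4 were higher and the rest were level. Vsig4, a receptor for C3b on tissue macrophages, read 384 and 569 (0.57). The subunits of the integrin receptors for iC3b read 721 and 713 for Itgam (-0.02), 1266 and 1238 for Itgax (-0.03) and 1766 and 1834 for Itgb2 (0.05). Cd93, a receptor once assigned to C1q, read 2219 and 2089 (-0.09), and C1qbp, a mitochondrial protein that binds C1q, 597 and 574 (-0.06). Cr2, a B cell receptor for C3d, was under the filter at 25 and 23. The signs of Itgam, Itgax and C1qbp turned under some scaling choices.

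**Figure D3:**
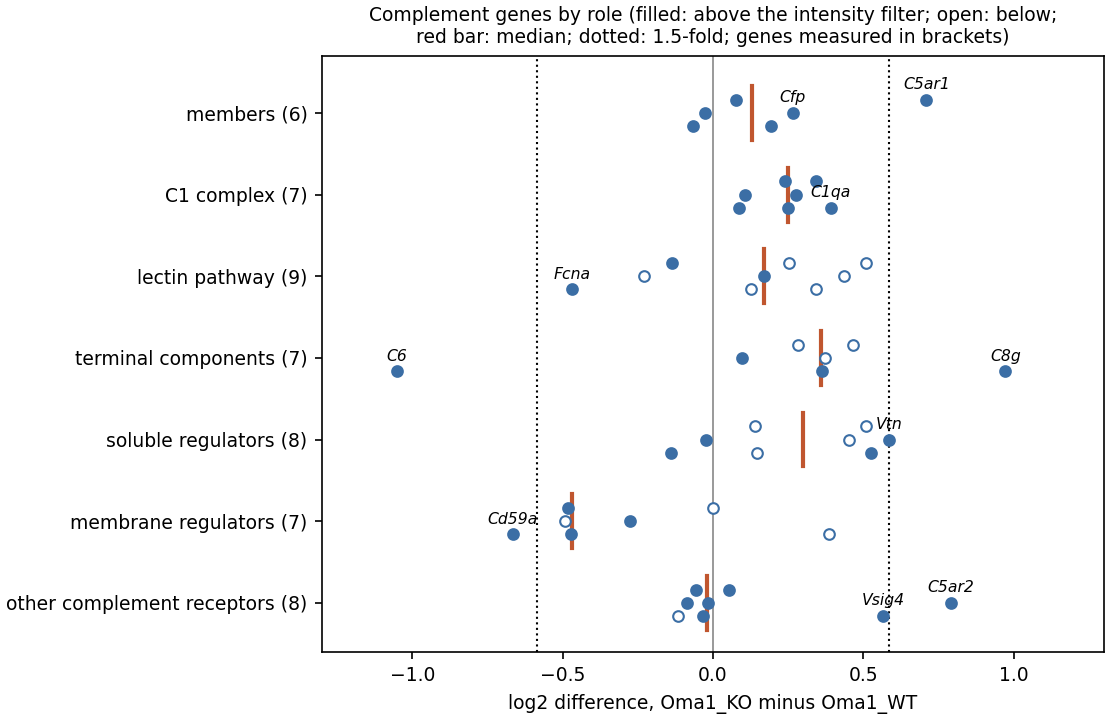
Log2 difference between the Oma1_KO and Oma1_WT arrays for each measured complement gene, by role, filled where the gene was above the intensity filter and open where it was below, with the list median as a red bar and 1.5-fold as dotted lines. The C1 group sits wholly to the right of 0 and most membrane regulators to the left. C6, at -1.05, lies apart from the other terminal components, of which 3 are below the filter.

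The labelled tissue was checked against its markers. For the marker counts here and below, 36.6% of genes above the filter were higher and 62.3% lower. Of all 19938 genes 46.9% were higher and 47.9% lower, and 1.15% and 1.40% were so by at least 1.5-fold. All 12 adipocyte markers were above the filter on both arrays, with Adipoq, which encodes adiponectin, at 6832 and 5255 (-0.38) and Plin1, a lipid droplet coat protein, at 6387 and 5923 (-0.11). Their summed intensity was 77905 in Oma1_WT and 69233 in Oma1_KO, and 11 of 12 were lower. The probe set of Oma1 itself read 187 and 155 (-0.27), and 14.0% of genes above the filter had a difference at least as low. Which exons the allele lacks is not given in the labels used here, and the value is therefore no check of the label. In RNA of whole tissue, fewer cells of a type and less RNA per cell cannot be told apart.

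Most macrophage markers were higher in Oma1_KO, as were C5ar1, C3ar1, Cfp and the C1q chains. Of 12 markers 10 were higher, 1 of them by 1.5-fold, with a median of 0.23 and a summed intensity of 21682 in Oma1_WT and 24711 in Oma1_KO (1.14-fold), and 0 were at an intensity of 0. The defining markers Adgre1, which encodes F4/80, and Cd68 read 2497 and 2896 (0.21) and 5616 and 5626 (0.00). Fcgr1, an immunoglobulin receptor, read 308 and 503 (0.71), Cd14 298 and 400 (0.42) and Mertk, a receptor for dying cells, 664 and 470 (-0.50). The difference of C5ar1 equalled that of Fcgr1 to 2 decimals and was higher than those of the other markers. C3ar1 was higher than 5 of the 12 and Cfp than 7, within the range of the markers. Lipid-associated macrophage genes, of which 10 were measured, had a median of 0.05, with 6 higher and 4 lower, and a summed intensity of 49295 and 47813. That sum includes Lpl, at 10389 and 9210, which is also an adipocyte marker. The largest differences in the list were those of the lipid receptor Trem2, at 1553 and 2241 (0.53), the protease Ctsl, at 7684 and 6306 (-0.29), and Fabp5, a fatty acid-binding protein, at 2821 and 2345 (-0.27). The part of macrophage number in the receptor values was not tested.

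Other cells that carry C5ar1 were measured too. Of 10 neutrophil markers 8 were under the filter, with a summed intensity of 634 and 668 and a median of 0.06. S100a8 read 165 and 134 (-0.30), S100a9 75 and 72 (-0.06) and Csf3r, the receptor for granulocyte colony-stimulating factor, 107 and 144 (0.43). The list as a whole had 7 markers higher, 2 lower and 1 equal, S100a8 and S100a9 being the 2 lower ones. Of 10 mast cell markers 7 were higher and 4 were at least 1.5-fold higher (beside 1.15% of all genes), with a median of 0.17 and a summed intensity of 1347 and 2017. The mast cell proteases Cpa3, Mcpt4 and Tpsb2 read 282 and 663 (1.23), 215 and 426 (0.98), and 202 and 308 (0.61). The other marker at least 1.5-fold higher, the protease Cma1, was under the filter at 42 and 67 (0.66). The 3 lower ones were the receptor Kit at 212 and 187 (-0.18), the transcription factor Gata2 at 176 and 156 (-0.17), both above the filter, and the protease Tpsab1 below it at 53 and 34 (-0.63). The part of mast cells in the C5ar1 value was not tested.

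Hepatocyte markers were higher in Oma1_KO, as were some of the plasma proteins of the pathway. Of 12 measured 11 were higher, 8 of them by at least 1.5-fold, with a median of 0.87 and a summed intensity of 4283 in Oma1_WT and 9575 in Oma1_KO (2.24-fold). Alb, which encodes albumin, read 1692 and 4523 (1.42), Apoa1 253 and 904 (1.83) and Hpx, which encodes the haem carrier hemopexin, 394 and 963 (1.29). The complement genes C8g, Vtn, Cfi and Hc, which the liver makes, were higher on the same array, C8g passing the filter only through it. Some other plasma proteins of the pathway were level or lower, with C2, Cfb and C4b as above, Serping1, the C1 inhibitor, at 6249 and 6152 (-0.02), C7 at 0.10, Clu at -0.14 and C6 at -1.05. Others were higher, among them Cfp and the C1 group as above, and several genes under the filter. The part of liver transcripts in these values was not tested.

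Endothelial and most mesothelial markers were lower, as were C6 and most, but not all, of the membrane regulators. All 10 endothelial markers were lower, with a median of -0.38 and a summed intensity of 12076 and 9265. Of 10 mesothelial markers 9 were lower, with a median of -0.51 and a summed intensity of 3082 and 2167. Fibroblast and preadipocyte markers were spread around equality, 4 higher and 5 lower of 9, with a median of -0.04 and a summed intensity of 17672 and 17507. Lymphocyte markers were low too, with all 7 B cell markers lower (summed intensity 1109 and 808) and 6 of 8 T and NK cell markers lower (657 and 591). The part of these cells in the values of C6, Cd59a, Cd55 and Cd59b was not tested.

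Cfb, C2, C4b and other complement factors are known to be induced by interferon gamma and in the acute phase, so genes of both responses were read beside them. Of 10 interferon-gamma-induced genes 7 were lower, with a median of -0.15, the guanylate-binding proteins Gbp4 and Gbp3 at 729 and 236 (-1.62) and at 250 and 157 (-0.67), and Ciita, the class II transactivator, at 158 and 201 (0.35). Of 12 acute-phase and inflammatory genes 8 were lower and 4 higher, with a median of -0.30. Orm2 read 342 and 98 (-1.79), Saa2, a serum amyloid A, 152 and 84 (-0.85), and Lcn2, which encodes lipocalin 2, 1784 and 2527 (0.50). Cfb and C2, at -0.03 and -0.07, lay above the medians of both lists and within their ranges. Skeletal muscle markers (8 measured, 7 higher, median 0.14, summed intensity 933 and 1191) and epididymal markers (7 measured, all under the filter, summed intensity 253 and 209) completed the check of what the samples held.

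**Figure D4:**
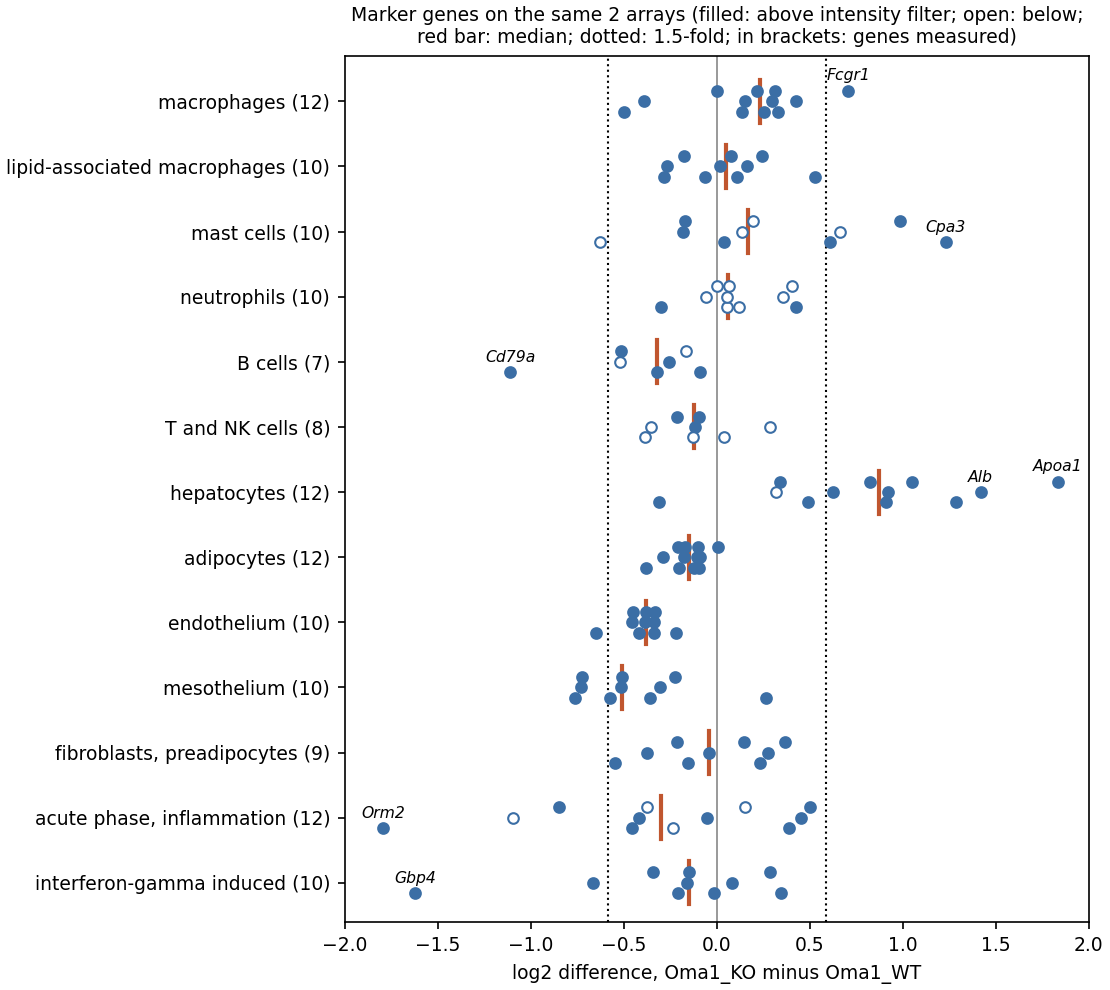
Log2 difference between the Oma1_KO and Oma1_WT arrays for marker genes of cell types and for genes of the acute phase and of interferon gamma, filled where above the intensity filter and open where below, with list medians as red bars and 1.5-fold as dotted lines. Hepatocyte markers, with a median of 0.87, lie farthest to the right, macrophage markers mostly right of 0, and endothelial and most mesothelial markers to the left.

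With 2 arrays any 2 genes are perfectly correlated or anticorrelated, so no gene can be named for a pattern like that of a member.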

How the data were processed

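RNA of 1 control and 1 Oma1-deficient fat sample was extracted with Trizol and biotin-labelled for Affymetrix Mouse Gene 1.0 ST arrays, per the labels. The authors deposited intensities on a linear scale, 1 for each probe set, rounded to whole numbers, and both arrays had a median of 83 over 35512 probe sets. Software, background correction and scaling were not given in the sources used here, and no detection call was available, so dim values cannot be told from background. The number of arrays limits the precision.

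Gene names came from the platform annotation of GEO (21789 with 1 symbol, 1621 with several, 12102 with none). Of those with 1 symbol, 21698 matched the RefSeq gene table of GRCm38.p6 by identifier. Values were log2(intensity + 1), which understates the change of dim genes, and probe sets of a gene were averaged. The members and lists were chosen with earlier results of these data known, and the motifs with the promoter sequences in view. Genes named were the members, the C1 group and other receptors in full, defining markers, genes between C2 and C4b, and up to 3 genes per list with the largest absolute difference above the filter. Tpsab1, Cma1, Kit, Gata2, Serping1, Dhx34, Ccdc9, C7, C8a, C8b, C9 and Cr1l were named after their values were seen. Fold-size calls were run on simulated data under the main, pseudocount, quantile, loess and median-centring settings. The intensity filters, the brightest-probe-set choice, the averaging of probe sets and the list counts were not simulated. Python 3.11.15, numpy 2.4.6, pandas 2.3.3, statsmodels 0.14.6 and matplotlib 3.10.9 were used.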

Additional observations from a re-analysis of the deposited data

How the results depend on the processing

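No paired analysis was possible because each group had 1 array, and for the same reason no array could be left out. The alternatives were a pseudocount of 16, quantile normalisation, a loess correction (span 0.3), median centring, the brightest probe set of a gene, and other intensity filters. A value was taken as unmoved if it shifted by less than the SD of 0.17 between probe sets, and a count if it stayed within 1.5 times. Under the 4 alternatives that could change a value (the pseudocount, quantile normalisation, loess and the raised filter), 80 values were recomputed, 79 were unmoved and 0 turned sign past 1.5-fold. The exception was the count of other complement genes at least 1.5-fold higher, 3 in the main setting and 1 when the filter was raised to the upper quartile, an intensity of 326, which drops dim genes. The median difference of the other complement genes went from 0.14 to -0.02 under that filter, a change of direction although smaller than the SD. The margin of 0.17 is wider than small values such as C2, Cfb and the median of the members (0.13). These could therefore count as unmoved in any case, and C2 and Cfb did so while their signs turned. The raised filter could change no value of the members, since all measured ones lay above it. The tally of unmoved values is therefore a weak check. C5ar1 ran from 0.70 to 0.77, C3ar1 from 0.19 to 0.23 and Cfp from 0.26 to 0.32 over the alternatives. Median centring subtracted 0, since both arrays had the same median, and so tested nothing, each member has 1 probe set, so the brightest changed no member, and the lists were counted over all measured genes, so removing the filter changed none of their values.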

Other observations

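A probe set annotated to both C1ra and C1rb, left out of the gene values since it names 2 genes, read 1429 in Oma1_WT and 1577 in Oma1_KO (0.14). It was higher in Oma1_KO, as was the probe set of C1ra alone, at 175 and 222 (0.34), and these paralogous proteases of the C1 complex share sequence.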
